A study of Rattus norvegicus with 156 samples.

Results

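Dorsal root ganglia (DRG) of rats that had no nerve ligation were compared between the L6 and the L4 segment of the spine. The members were chosen from the sample titles: all DRG RNA pools labelled naive, naive with gabapentin (Naive+ GPN) or sham, from either side. They are 16 of the series' 52 pools, with 6 pools of L4, 5 of L5 and 5 of L6. Each pool held RNA from 4 to 6 rats and was hybridised to 3 Affymetrix rat U34 arrays (A, B and C), which carry different probe sets, so that 48 of the series' 156 arrays enter. Naive rats had no surgery and received saline vehicle. Naive with gabapentin rats had no surgery and received gabapentin, an analgesic, at 100 mg/kg into the peritoneum once a day for 7 days. Sham rats had their spinal nerves exposed but not tied and received vehicle, and their tissue was taken 19 to 21 days after surgery. Among the 52 pools there is no contralateral L6 pool of naive rats and no contralateral L5 pool of naive rats on gabapentin. The labels state neither sex, strain nor age. Each treatment, level and side is 1 pool, and whether the left and right pools of a treatment hold the same rats is not given, so p-values measure only the spread between these pools, which may be in part technical.

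Each DRG holds the cell bodies of the sensory neurons of one spinal nerve. In the rat, L4 and L5 carry most of the sciatic nerve, including sensory fibres from the large muscles of the hindlimb. L6 lies at the caudal end of the lumbar series and also supplies pelvic organs, the pelvic floor and the tail base. Large myelinated neurons include proprioceptors, which report muscle length and tension and contain the calcium-binding protein parvalbumin (Pvalb). Small neurons include peptidergic nociceptors, which contain calcitonin gene-related peptide (Calca), and a class of small neurons that makes somatostatin (Sst). Hox genes encode transcription factors whose order along the chromosome follows their order of expression along the body axis.

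Of the 3 genes taken as markers, Pvalb was lower in L6, Sst was higher and Calca did not pass the test. Values are signals after quantile normalisation. Differences are log2(signal + pseudocount), L6 minus L4, with the standard error (SE) and the Benjamini-Hochberg adjusted p of a limma fit over 16869 probe sets, with a threshold of 0.05. In whole ganglia, fewer cells of a type and less RNA per cell cannot be told apart. The Pvalb signal in L4 ran from 525 to 831 with a median of 608 over 6 pools. The L6 signal was 468 in the naive ipsilateral pool, 249 and 155 in the ipsilateral and contralateral gabapentin pools, and 85.9 and 157 in the ipsilateral and contralateral sham pools. All L6 pools lay below all L4 pools, and the naive ipsilateral pool was the nearest to them. That pool also had the most skeletal muscle transcript (Acta1 at 1842), and fast muscle fibres make parvalbumin too. Whether muscle raised the Pvalb signal of that pool was not tested. The naive ipsilateral L5 pool had Acta1 at 1369, and Pvalb in the 5 L5 pools ran from 453 to 608. The mean signal fell from 628 ± 108 (SD, n = 6) to 223 ± 149 (SD, n = 5), a log2 difference of -1.61 (SE 0.25, adjusted p = 0.00909), with L5 at 525 ± 76.5 (SD, n = 5). The log2 difference was -1.95 (adjusted p = 0.00132) without the naive ipsilateral L6 pool and -1.84 (adjusted p = 0.00729) with the muscle level as a covariate. The call held in each of 16 fits that left out 1 pool. It was lost with the deposited scaling (-1.50, adjusted p = 0.234), with the sides averaged first (0.173), without the gabapentin pools (0.259), in the L4 and L6 pools fitted without L5 (0.0697), and in the ipsilateral (0.493) or contralateral (0.159) pools alone.

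The Sst signal in L4 ran from 336 to 502 with a median of 444. The L6 pools gave 639 in the naive ipsilateral pool, 703 and 680 in the ipsilateral and contralateral gabapentin pools, and 592 and 877 in the ipsilateral and contralateral sham pools. No L6 pool reached down to the highest L4 pool. The mean rose from 422 ± 69.1 (SD, n = 6) to 698 ± 109 (SD, n = 5), a log2 difference of 0.71 (SE 0.13, adjusted p = 0.0204), with L5 at 444 ± 54.4 (SD, n = 5). The call was lost without the ipsilateral gabapentin L4 pool (adjusted p = 0.0541), the contralateral gabapentin L6 pool (0.0548) or the contralateral sham L6 pool (0.0545). It was also lost with the deposited scaling (0.76, adjusted p = 0.502) and with median scaling (0.29, adjusted p = 0.456). Fits on fewer pools lost it too: without the gabapentin pools (adjusted p = 0.346), without L5 (0.0990), and in the ipsilateral (0.169) or contralateral (0.488) pools alone. The other Sst probe set gave a log2 difference of 0.36 (adjusted p = 0.182). Of 4 tested members of the somatostatin neuron list, 1 rose, Sst itself, and none fell, where 0.348% of all genes rose. The other 3 were below 0, and the list's median was -0.07, against -0.01 for all genes. Calca, the calcitonin gene-related peptide precursor, had overlapping groups, 1058 to 1690 in L4 and 1306 to 1784 in L6. Its log2 difference was 0.19 (SE 0.12, adjusted p = 0.550), and it turned to -0.26 when arrays were scaled to their medians.

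Sequences around the annotated starts of Hoxd10, the gene with the largest rise, and of the markers Sst and Pvalb, which moved in opposite directions, are shown because the results below turn on these 3 genes. Each is 280 bases, from 250 before the annotated start, in RefSeq's GRCr8 assembly, read 5′ to 3′ on the gene's strand. Hoxd10 is at chr3:80001697-80001976 on the plus strand, Sst at chr11:90461296-90461575 on the plus strand and Pvalb at chr7:111666260-111666539 on the minus strand. Capitals mark a match to one of the 5 motifs named below. Among these 3 sequences, Sst alone holds one, TGACGTCA, at bases 253 to 260, which lie after the annotated start.
Hoxd10: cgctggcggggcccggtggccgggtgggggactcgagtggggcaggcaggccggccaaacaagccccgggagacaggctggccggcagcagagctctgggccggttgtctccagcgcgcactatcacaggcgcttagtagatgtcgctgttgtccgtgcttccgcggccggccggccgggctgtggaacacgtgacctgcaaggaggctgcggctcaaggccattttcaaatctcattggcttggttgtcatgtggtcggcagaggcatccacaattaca
Sst: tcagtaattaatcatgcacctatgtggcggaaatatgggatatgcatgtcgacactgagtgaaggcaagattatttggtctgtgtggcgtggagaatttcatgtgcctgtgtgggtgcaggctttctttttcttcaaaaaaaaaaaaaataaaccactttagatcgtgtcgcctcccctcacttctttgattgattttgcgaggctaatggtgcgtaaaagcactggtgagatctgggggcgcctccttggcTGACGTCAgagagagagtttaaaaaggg
Pvalb: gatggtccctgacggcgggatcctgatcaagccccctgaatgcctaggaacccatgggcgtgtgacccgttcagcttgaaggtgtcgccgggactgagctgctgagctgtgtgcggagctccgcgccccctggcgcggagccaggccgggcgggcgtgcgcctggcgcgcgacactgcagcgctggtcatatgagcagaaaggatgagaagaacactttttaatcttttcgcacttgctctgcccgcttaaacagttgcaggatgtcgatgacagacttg

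The 5 motifs were chosen with the called genes known, and the cAMP response element was added after the Sst promoter sequence had been seen, so its match there is a description of a chosen case. All were searched on both strands from 250 bases before to 50 after the start, in 58 of the 71 genes past the threshold that matched the RefSeq table. The cAMP response element TGACGTCA was in 3 of these 58 (5.17%), Scg2, Sst and Pak1, and in 1.83% of all 33469 promoters. The Onecut core ATCGAT was in 0 of 58 and in 0.896% of all promoters. The Hox core TTTATGG was in 1 (1.72%), Ghr, against 3.07% of all. The TATA box TATAAA was in 2 (3.45%), Spp1 and Lin7b, against 14.2% of all. The E-box CAGCTG was in 11 (19.0%) against 15.1% of all. Called genes were counted with 1 promoter each. The shares of all promoters are over every promoter listed, not 1 per gene and not only genes on the arrays, so the 2 sets are unlike. A match is a run of letters and was not tested as a site.

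**Figure D1:**
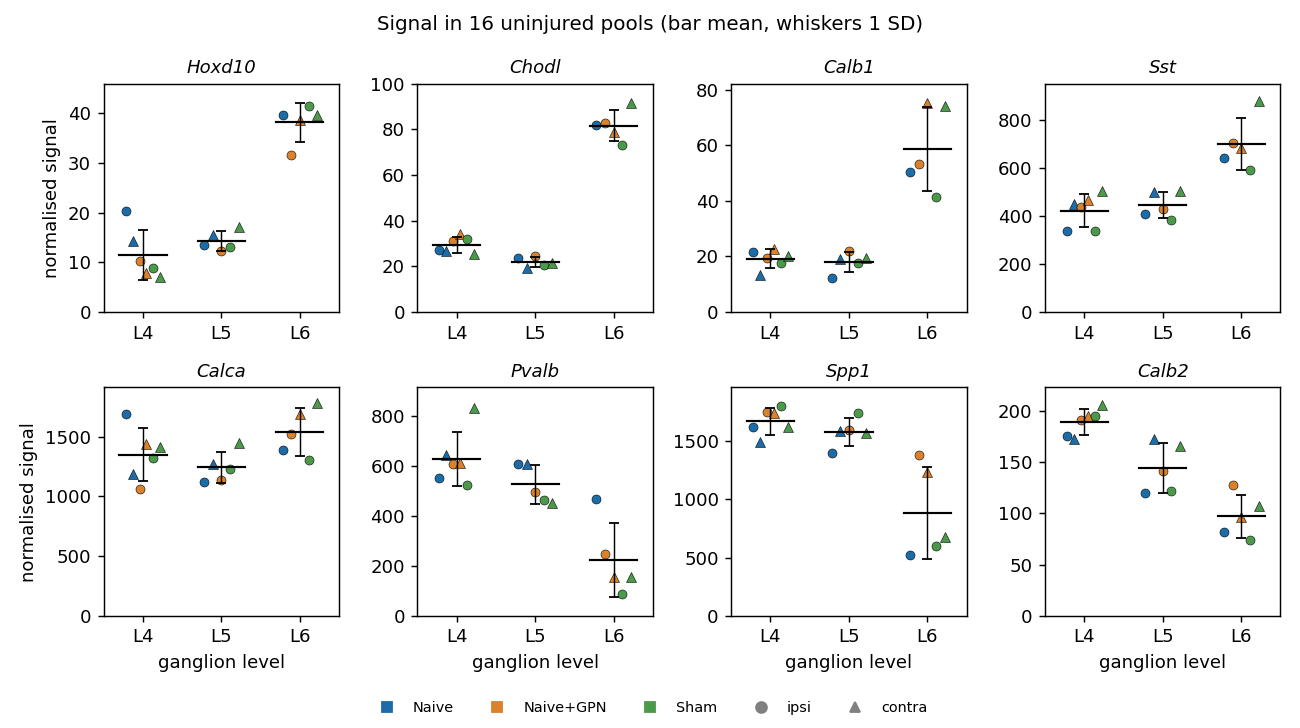
Normalised signal (vertical axes, from 0) of 8 genes in the 16 uninjured pools by ganglion level; colours are treatments, shapes are sides, bars are means and whiskers are 1 SD. The L6 pools of Hoxd10, Chodl, Calb1 and Sst lie above all L4 pools, those of Pvalb, Spp1 and Calb2 lie below all L4 pools, and the Calca pools overlap.

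Over all genes, 71 of 8623 tested (0.823%) passed the threshold between L6 and L4. Of these, 30 were higher in L6 (0.348%) and 41 lower (0.475%). The L4 and L6 pools did not overlap in 157 genes (1.82%). Counted as probe sets, 105 of 16869 passed, 45 higher and 60 lower. Array brightness differed between pools, so scaling matters here: with the deposited scaling 4 probe sets passed, all of them higher, in the 3 genes Hoxd10, Calb1 and Xdh, and with median scaling 183 passed, 19 higher and 164 lower. The share higher was 42.9% with quantile normalisation and 10.4% with median scaling. The median of all genes was -0.01 with quantile normalisation, 0.18 with the deposited scaling and -0.10 with median scaling. All of the 71 genes that could be fitted kept their direction in 34 of 35 alternatives, the exception being Gap43 under median scaling. Without the gabapentin pools 2 probe sets passed, in Chodl and Spp1. With the sides of each treatment averaged first 21 passed; of the genes chosen by the naming rule these were in Sst, Chodl, Calb1, Xdh, Gprc5c, Hpse and Calb2. None of the 71 genes passed in the ipsilateral or the contralateral pools alone.

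Some pools stood apart from the rest. The sham contralateral L4 pool had a GAPDH 3′ to 5′ signal ratio of 3.16, a sign of shortened RNA, against 1.13 to 1.49 in the other 15 pools, and the lowest median correlation with the others, 0.908. Without it 133 probe sets passed. The naive ipsilateral L6 pool had the most skeletal muscle transcript, with a mean log2 value over 40 muscle genes of 6.64, followed by the naive ipsilateral L5 pool at 6.28; the other 14 ran from 4.31 to 5.06. Acta1, skeletal muscle actin, read 1842 in that L6 pool and 57.8 to 64.3 in the other 4, and Ckm, muscle creatine kinase, 1428 against 26.5 to 56.9. Without that L6 pool 117 probe sets passed. The sham ipsilateral L6 pool was dim, with a median deposited signal of 8.1 on array B, and without it 352 probe sets passed. Leaving out 1 of 5 other pools lowered the count by over 1.5 times: 38 without the contralateral gabapentin L6 pool, 39 and 53 without the ipsilateral and contralateral gabapentin L4 pools, 53 without the naive contralateral L4 pool and 55 without the contralateral sham L6 pool. Counted as genes, 46 passed without the ipsilateral sham L4 pool.

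**Figure D2:**
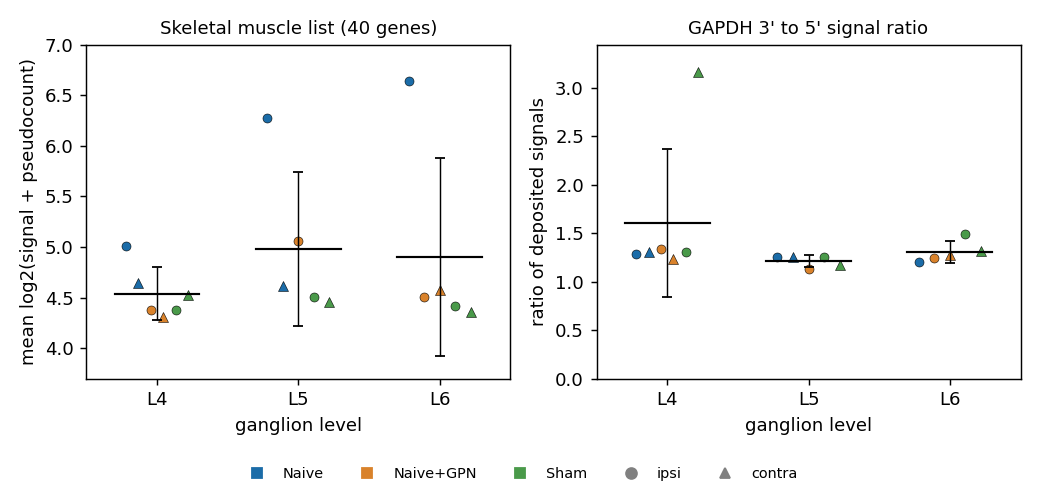
Left, mean log2(signal + pseudocount) of the skeletal muscle list, on an axis that does not start at 0; right, GAPDH 3′ to 5′ ratio of the deposited signals; both by ganglion level with 1 point a pool, bars for means and whiskers for 1 SD. The naive ipsilateral L5 and L6 pools stand high at 6.28 and 6.64 on the left, and the sham contralateral L4 pool stands high at 3.16 on the right.

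Of the transcription factor genes chosen by the naming rule, those past the threshold were Hoxd10, higher in L6, and Onecut1, lower. Hoxd10, a posterior member of the HoxD cluster, had the largest rise of all genes past the threshold. Its signal in L4 ran from 7.00 to 20.4 with a median of 9.57. In L6 it was 39.5 in the naive ipsilateral pool, 31.5 and 38.6 in the gabapentin pools, and 41.4 and 39.6 in the sham pools, so every L6 pool lay above every L4 and L5 pool. L5, at 14.3 ± 1.95 (SD, n = 5), lay near L4, at 11.4 ± 5.06 (SD, n = 6), and L6 averaged 38.1 ± 3.84 (SD, n = 5). The log2 difference was 1.49 (SE 0.17, adjusted p = 0.00119) between L6 and L4 and 1.24 (adjusted p = 0.0146) between L6 and L5. It passed with the deposited scaling (adjusted p = 0.0482) and without each pool in turn, but not without the gabapentin pools (0.0991) or with the sides averaged first (0.0524). Its L4 and L5 signals are weak, and the filter on low signals kept it in 16 of the 19 alternatives other than leaving out 1 pool.

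Of 13 tested members of the list of Hox and segment identity genes, 1 rose and none fell, where 0.348% of all genes rose and 0.475% fell, and the list's median log2 difference was 0.05, against -0.01 for all genes. Hoxd9, the neighbour of Hoxd10 in the cluster, had mean signals of 109 ± 10.8 (SD, n = 6) in L4 and 138 ± 13.3 (SD, n = 5) in L6, with a log2 difference of 0.31 that missed the threshold (adjusted p = 0.0985); its other probe set gave 1.37 (adjusted p = 0.0944). Hoxc9, Hoxd8 and Hoxc5 had log2 differences of 0.16, 0.33 and 0.03. Hoxb6, Hoxc4, Hoxa5, Hoxb2 and Hoxa11 had log2 differences of -0.43, -0.21, -0.25, -0.08 and -0.05. None of these 8 passed the test. Hoxc8, Hoxb7, Hoxa11-as, Hoxd3, Hoxd4 and Hoxb1 failed the filter on low signals and were not tested. Among these, Hoxc8 had mean signals of 20.3 in L4, 11.9 in L5 and 5.94 in L6. Its L6 signal was higher in 0 of 5 pairs of the same treatment and side. The Hoxc8 ranges overlapped, 9.5 to 28.04 in L4 and 2.35 to 12.58 in L6. Hoxb7 and Hoxa11-as also had lower means in L6, while Hoxd3, Hoxd4 and Hoxb1 had higher ones, all with overlapping pools.

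Onecut1, a transcription factor of the Onecut family, read 19.4 to 29.9 in L4 with a median of 22.1. The L6 signals were 4.17 in the naive ipsilateral pool, 4.18 and 4.33 in the gabapentin pools and 2.47 and 2.56 in the sham pools. These L6 signals are below the pseudocount of array A, 6.4, and no ratio is given. The log2 difference was -1.53 (SE 0.20, adjusted p = 0.00276). The gene entered the fit through 4 of the L4 pools and 1 of the L5 pools, and would not have entered at its L6 level. It passed the filter on low signals in 11 of the 16 fits that left out 1 pool, and the call held in those 11. It was lost with the deposited scaling (-1.12, adjusted p = 0.314) and with the sides averaged first (0.0524). L5 lay between at 13.4 ± 6.08 (SD, n = 5).

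Genes of large myelinated neurons moved both ways. Of 28 tested members of the list, 3 fell (Pvalb, Spp1 and Calb2) and 2 rose (Chodl and Calb1), where 0.475% of all genes fell and 0.348% rose; the median was -0.15, against -0.01 for all genes, and 18 of the 28 were below 0. The summed signal of the list was 23752 to 25699 in L4 and 20785 to 22712 in L6, with no overlap; with the deposited scaling the sums overlapped. Spp1, osteopontin, a secreted phosphoprotein found in large DRG neurons, read 1493 to 1803 in L4 with a median of 1682. Spp1 in L6 was 520 in the naive ipsilateral pool, 1382 and 1237 in the gabapentin pools and 600 and 677 in the sham pools. The gabapentin pools were the nearest to L4, and no L6 pool overlapped L4. The log2 difference was -1.07 (SE 0.16, adjusted p = 0.00821).

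Calb2, calretinin, a calcium-binding protein with EF-hand motifs, read 173 to 205 in L4 with a median of 192. In L6 it was 81.4 in the naive ipsilateral pool, 127 and 96.0 in the gabapentin pools and 73.9 and 107 in the sham pools. The groups did not overlap, and the log2 difference was -0.96 (SE 0.13, adjusted p = 0.00399), with L5 between at 144 ± 24.4 (SD, n = 5). Calb1, calbindin, a close relative of calretinin, moved the other way. It read 13.4 to 22.9 in L4 with a median of 19.8, and in L6 50.3 in the naive ipsilateral pool, 53.2 and 75.1 in the gabapentin pools and 41.2 and 74.1 in the sham pools. The log2 difference was 1.30 (SE 0.16, adjusted p = 0.00153), but the gene's other probe set gave 0.29 (adjusted p = 0.642). The L4 and L5 signals of Calb1 are weak. The filter on low signals kept Calb1 in 16 of the 19 alternatives other than leaving out 1 pool.

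Chodl, chondrolectin, a membrane protein with a C-type lectin domain, had the smallest adjusted p of all named genes. It read 25.5 to 34.1 in L4 with a median of 29.0, and in L6 81.9 in the naive ipsilateral pool, 82.8 and 79.0 in the gabapentin pools and 73.1 and 91.6 in the sham pools. The L6 pools were well clear of both other levels, L5 being at 21.8 ± 2.16 (SD, n = 5). The log2 difference was 1.33 (SE 0.10, adjusted p = 1.78e-05) against L4 and 1.67 (adjusted p = 1.42e-06) against L5. The call against L4 held in each of 16 fits that left out 1 pool and in 16 of 19 other alternatives. With the deposited scaling Chodl did not pass, and neither did Spp1 or Calb2. Other members of the list did not pass: the neurofilament genes Nefh, Nefm and Nefl had log2 differences of -0.02, -0.01 and -0.32, and Etv1, a transcription factor of proprioceptors, -0.61 (adjusted p = 0.0801). Ntrk3, the neurotrophin-3 receptor, had a log2 difference of 0.00 (adjusted p = 0.996).

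The nociceptor genes that passed were higher in L6, by a smaller amount, and the direction of the lists depended on scaling. Of 14 tested members of the peptidergic list, 2 rose (Scg2 and Trpv1) and none fell, where 0.348% of all genes rose. The list's median was 0.29; it was 0.41 with the deposited scaling and -0.06 with median scaling, against all-gene medians of 0.18 and -0.10. Of 10 tested members of the non-peptidergic list, 2 rose (Grik1 and Gfra2) and none fell, against the same 0.348%, with a median of 0.33; it was 0.43 with the deposited scaling and -0.03 with median scaling. No member of either list passed with those 2 scalings. Measured from the median of all genes, both lists stayed above 0 in all 3 scalings, at 0.05 to 0.30 and 0.07 to 0.33.

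Scg2, secretogranin II, a protein of dense-core vesicles, read 270 to 431 in L4 with a median of 298. In L6 it was 477 in the naive ipsilateral pool, 567 and 704 in the gabapentin pools and 542 and 785 in the sham pools. The groups did not overlap, and the log2 difference was 0.91 (SE 0.15, adjusted p = 0.0116). Trpv1, the capsaicin receptor, rose from 124 ± 7.91 (SD, n = 6) to 171 ± 24.8 (SD, n = 5), with a log2 difference of 0.43 (adjusted p = 0.0448). The call held in 1 of 16 fits that left out 1 pool. Grik1, a kainate receptor subunit, rose by 0.59 (adjusted p = 0.0244) and held in 11 of 16. Gfra2, the neurturin receptor, rose by 0.58 (adjusted p = 0.0259) and held in 11 of 16, while its 2 other probe sets gave 0.45 and 0.26 (adjusted p = 0.505 and 0.654). Tac1, the substance P precursor, P2rx3, an ATP-gated channel, and Ret, a receptor subunit for the GDNF family, had log2 differences of 0.17, 0.15 and 0.40 and did not pass.

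**Figure D3:**
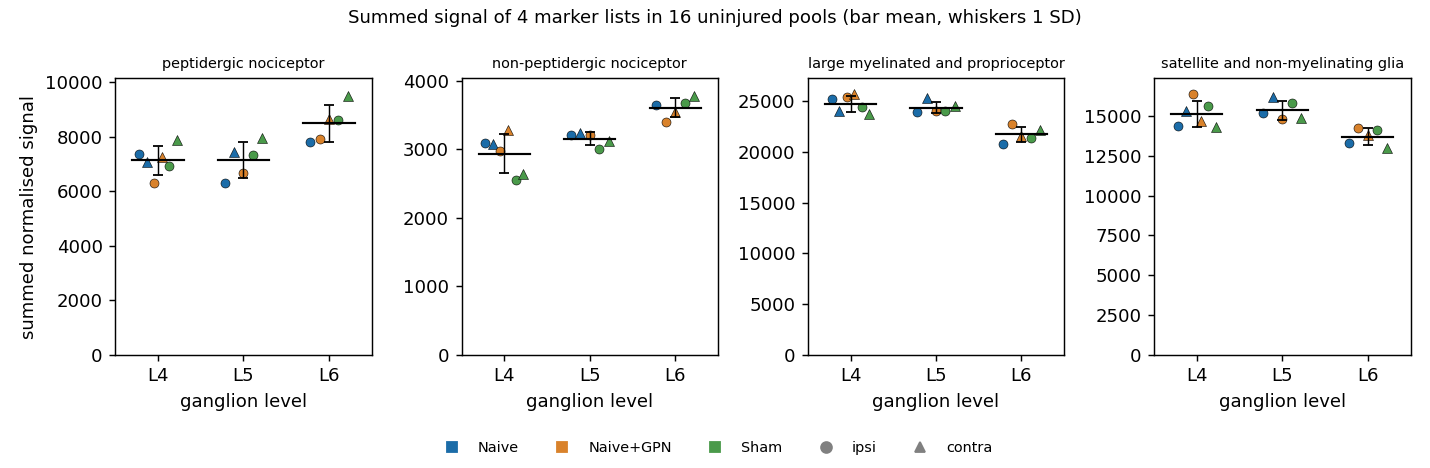
Summed normalised signal (vertical axes, from 0) of 4 marker lists in the 16 uninjured pools by ganglion level; colours are treatments, shapes are sides, bars are means and whiskers are 1 SD. L6 sums of the large myelinated list, 20785 to 22712, and of the satellite glia list, 12998 to 14259, lie below all L4 sums; the non-peptidergic L6 sums lie above all L4 sums and the peptidergic sums overlap slightly.

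Each list of channel and receptor genes had members past the threshold, where 0.348% of all genes rose and 0.475% fell. Of 10 tested sodium channel genes, 1 rose and none fell: Scn3b, a beta subunit, went from 125 ± 15.1 (SD, n = 6) to 221 ± 49.4 (SD, n = 5), a log2 difference of 0.79 (SE 0.14, adjusted p = 0.0184). Its other probe set gave 0.93 (adjusted p = 0.0121); the call was lost without the ipsilateral gabapentin L4 pool (adjusted p = 0.0541). Scn9a and Scn11a, alpha subunits found in nociceptors, had differences of 0.60 and 0.42 (adjusted p = 0.142 and 0.0566). Of 13 tested genes linked to visceral afferents, 2 rose, Trpv1 and Chrna3, and none fell. Chrna3, a nicotinic receptor subunit also used by sympathetic neurons, rose by 0.44 (adjusted p = 0.0476) and held in 4 of 16 fits. Of 20 tested genes of calcium channels and calcium-binding proteins, 2 rose, Calb1 and Hpca, and 3 fell, Pvalb, Calb2 and Vsnl1. Hpca, hippocalcin, a calcium sensor, rose by 0.71 (adjusted p = 0.0360) and held in 5 of 16. Of 25 tested potassium channel genes, 1 fell, Kcnc2, by 0.72 on the log2 scale (adjusted p = 0.0441), and held in 5 of 16.

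The largest falls were in Ghr, Gprc5c and Lin7b. Ghr, the growth hormone receptor, read 39.9 to 89.0 in L4 with a median of 70.1, and in L6 24.6 in the naive ipsilateral pool, 12.1 and 9.22 in the gabapentin pools and 8.84 and 6.06 in the sham pools. No pools overlapped, and the log2 difference was -1.97 (SE 0.30, adjusted p = 0.00852). Gprc5c, an orphan G protein-coupled receptor, went from 38.9 to 67.8, with a median of 56.9, in L4 to 7.34 to 12.4 in L6, a log2 difference of -1.96 (SE 0.24, adjusted p = 0.00173). At their L6 means, 12.2 for Ghr and 9.18 for Gprc5c, neither gene would have passed the filter on low signals. The other probe sets of Ghr failed that filter, with means of 8.96 and 6.75 in L4 and 5.63 and 7.13 in L6. Lin7b, a scaffold protein of cell junctions and synapses, went from 61.3 ± 14.8 (SD, n = 6) to 15.6 ± 10.5 (SD, n = 5), a log2 difference of -1.70 (SE 0.27, adjusted p = 0.00909). The L6 mean of Lin7b would not have passed the filter either. All 3 held in each of 16 fits, and in all 3 the L5 mean lay between, at 38.9, 26.5 and 38.0. None of the 3 stood apart in this way on the opposite side of ligated rats, as given below.

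Hpse, heparanase, which cuts heparan sulfate, fell by 1.19 on the log2 scale (adjusted p = 0.0149), and a second probe set by 1.19 as well (adjusted p = 0.00456). Txnl4b, a thioredoxin-like splicing protein, fell by 1.04 (adjusted p = 0.0290) and held in 12 of 16 fits. Cox6c, a subunit of cytochrome c oxidase, fell by 0.96 (adjusted p = 0.0290) and held in 10 of 16, while its other probe set gave -0.21 (adjusted p = 0.776). Hist1h2bq, a histone gene with near-identical copies, so that its probe set may not read it alone, fell by 0.85 (adjusted p = 0.0395) and held in 5 of 16. Ecrg4, which encodes a secreted peptide precursor, fell by 0.77 (adjusted p = 0.0340) and held in 9 of 16. Rab3c, a small GTPase of synaptic vesicles, fell by 0.90 (adjusted p = 0.0200) and held in 14 of 16, with 1 L6 pool inside the L4 range, while its other probe set gave -0.31 (adjusted p = 0.333).

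Among the other rises, Xdh, xanthine dehydrogenase of purine breakdown, went from 21.8 ± 5.59 (SD, n = 6) to 49.1 ± 10.9 (SD, n = 5), a log2 difference of 1.03 (SE 0.17, adjusted p = 0.0100). Perp, a membrane protein of cell junctions, rose by 0.78 (adjusted p = 0.00909), and its other probe set by 0.64 (adjusted p = 0.0939). Both calls held in each of 16 fits. Scnn1a, a subunit of the epithelial sodium channel, rose by 0.98 (adjusted p = 0.0302) and held in 9 of 16. At its L4 level Scnn1a would not have passed the filter on low signals. Cdon, a cell surface co-receptor for hedgehog proteins, rose by 0.97 (adjusted p = 0.0219) and held in 12 of 16. At its L4 mean of 15.5 Cdon would not have passed that filter either. Oaz2, an antizyme of polyamine synthesis, rose by 0.91 (adjusted p = 0.0360), held in 5 of 16 and read 0.15 and 0.22 on its 2 other probe sets. Fgfr1-ps1, a pseudogene whose probe set could also read its parent gene, rose by 0.75 (adjusted p = 0.0379) and held in 5 of 16. Gap43, a growth cone protein that is also induced by axon injury, rose by 0.41 (adjusted p = 0.0395), held in 3 of 16 and had a difference of -0.01 with median scaling.

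The satellite glia genes that passed were lower in L6. Of 18 tested members of the list of satellite and non-myelinating glia, 2 fell and none rose, where 0.475% of all genes fell. The list's median was -0.14; the median relative to all genes was below 0 in all 3 scalings, at -0.14, -0.20 and -0.29, while the L4 and L6 sums overlapped with the deposited scaling. Fabp7, a fatty acid-binding protein of satellite glia, went from 84.9 ± 32.2 (SD, n = 6) to 47.6 ± 21.7 (SD, n = 5) and Sparcl1, a matrix protein, from 609 ± 130 (SD, n = 6) to 346 ± 108 (SD, n = 5). Their log2 differences were -0.83 and -0.78 (adjusted p = 0.0123 for both) in the fit with treatment as a term, and the L4 and L6 ranges overlapped in each. On the opposite side of ligated rats, described below, the differences of Fabp7 and Sparcl1 were -0.003 and -0.23, with overlapping pools. No member of the lists of myelinating Schwann cells, macrophages, lymphocytes, endothelium, smooth muscle, fibroblasts, adipocytes, red blood cells or spinal cord oligodendrocytes passed. These lists have 6 to 30 tested members each, and with 0.823% of all genes past the threshold a count of 0 is near the share over all genes.

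Skeletal muscle transcript was not evenly spread. No muscle gene of 25 tested passed, but 23 were above 0 and the median was 0.37, and 0.02 over 18 tested when the naive ipsilateral L5 and L6 pools and the sham contralateral L4 pool were left out. The summed signal of the muscle list ran from 858 to 1705 in L4 and from 941 to 9190 in L6. Acta1 and Ckm had log2 differences of 0.38 and 0.82 (adjusted p = 0.834 and 0.627). The mean log2 value of the muscle list, entered as a covariate, gave 116 probe sets past the threshold, and 55 of the 71 genes passed again. Leaving out those 3 pools gave 117 probe sets, and 41 of the 71 genes passed again. Pvalb, Chodl and Hoxd10 passed in both.

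L5, the level between, gave calls against L6 and none against L4. No probe set passed between L5 and L4 (0% of genes), with limma giving 575 of 16869 at an unadjusted p under 0.05. Between L6 and L5, 21 probe sets passed, 14 higher and 7 lower in L6, in 13 genes (0.151%). All 21 also passed between L6 and L4 in the same direction; the comparisons share the L6 pools. Without 1 pool the count ran from 3 (ipsilateral sham L5 pool left out) to 100 (ipsilateral sham L6 pool left out). Of the 71 genes, the L5 mean lay between those of L4 and L6 in 60 (84.5%), and it was nearer to L4 in 66 (93.0%). Over all genes these shares were 39.7% and 59.3%. The 71 were chosen on the L4 and L6 pools, which spreads those means apart, so the shares are a description. Scnn1a and Cdon were among those with an intermediate L5 mean, at 21.2 and 24.7 against 11.9 and 15.5 in L4 and 31.1 and 36.8 in L6.

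The same 2 levels were read in 4 pools that the fit did not use: L4 and L6 DRG from the side opposite to the ligation, in rats with spinal nerve ligation (SNL) of L5 and L6, with and without gabapentin. These rats were operated on, so they are not uninjured. With 2 pools against 2, no probe set of 16392 passed and 784 had an unadjusted p under 0.05. Of 70 of the 71 genes measured there, 53 (75.7%) had the same direction, against 47.6% of all genes. In 33 of the 70 (47.1%) both L6 pools lay beyond both L4 pools in that direction, against 16.6% of all genes.

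The genes with the same direction included Pvalb, Sst and several of the largest differences. Hoxd10 read 7.67 and 6.78 in L4 and 30.6 and 21.9 in L6, a log2 difference of 1.38. Chodl read 20.8 and 27.5 in L4 and 65.1 and 62.1 in L6, a difference of 1.26. Pvalb read 485 and 528 in L4 and 231 and 273 in L6, a difference of -0.996. In these 3 the L6 pools stood clear of the L4 pools, as they did for Calb1 (0.87), Xdh (1.47), Scn3b (0.82), Perp (0.84), Scg2 (0.64), Spp1 (-0.59), Calb2 (-0.56) and Hpse (-0.54). Sst was 402 and 417 in L4 against 438 and 498 in L6, a difference of 0.19.

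Some leading genes did not do so. Ghr had a log2 difference of 0.41, Gprc5c of -0.01 and Lin7b of 0.06 on the opposite side, with overlapping pools. Opposite-side pools also overlapped for Txnl4b (-0.09), Cox6c (-0.32), Hist1h2bq (0.38), Ecrg4 (-0.02) and Oaz2 (0.16). Of these, Hist1h2bq went against its uninjured direction, and the rest kept theirs. Scnn1a, Cdon and Fgfr1-ps1 had differences of -0.43, -0.66 and -0.74, with both L6 pools below both L4 pools. Ogg1, a DNA repair glycosylase outside the naming rule and named here after its values were seen, fell by 1.04 in uninjured ganglia and had a difference of 1.10 on the opposite side. A test of the difference between uninjured and opposite-side pools, added after these values were seen, called 0 of 16825 probe sets (lowest adjusted p = 0.453; 1047 with an unadjusted p under 0.05), so these contrasts were not shown to differ between the groups.

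**Figure D4:**
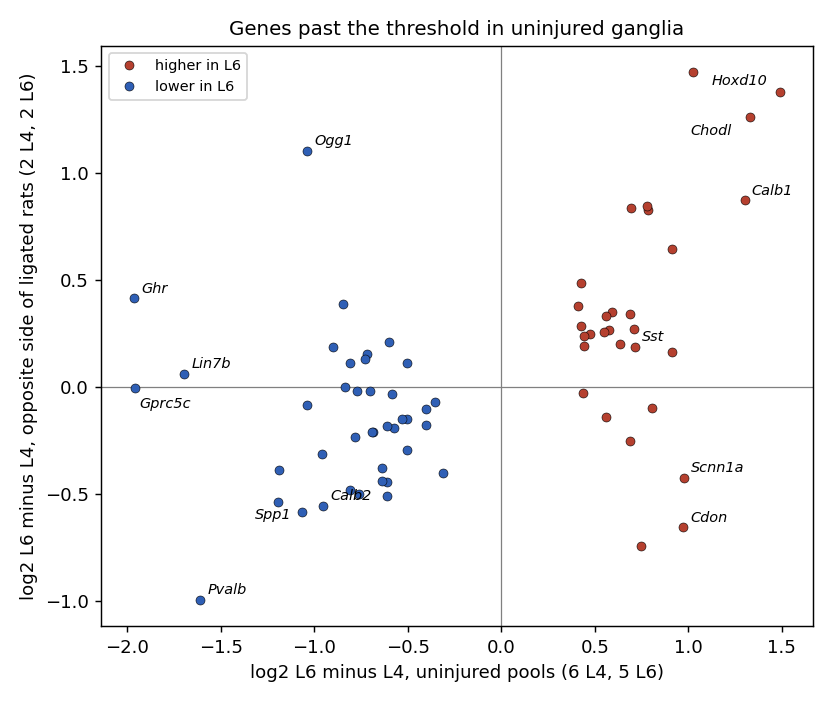
Log2 difference, L6 minus L4, of the genes past the threshold in uninjured ganglia (horizontal axis, 6 L4 and 5 L6 pools) against that on the opposite side of ligated rats (vertical axis, 2 and 2 pools); each point is a gene, red if higher and blue if lower in uninjured L6. Hoxd10, Chodl and Pvalb lie far from 0 on both axes, at 1.38, 1.26 and -0.996 on the vertical one, while Ghr, Gprc5c and Lin7b lie near 0 or above on the vertical axis.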

How the data were processed

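Values are linear signal intensity per probe set as deposited by the authors, made with MAS5 per the submitters' processing notes; no version or scaling target is stated there. Trimmed means of the 16 uninjured pools differed 2.13-fold for array A, 4.60-fold for array B and 2.58-fold for array C, so the arrays of each set were quantile normalised. Values were taken as log2(signal + pseudocount), the pseudocount being the 20th percentile of a set (6.4, 4.8 and 5.7 for A, B and C), which understates the change of weak genes. Probe sets above the 40th percentile of their array in at least 5 pools were kept, without controls. A gene can pass this filter through the level where it is high. In the 19 alternatives other than leaving out 1 pool, Hoxd10 and Calb1 passed it in 16. Xdh, Cdon and Gprc5c passed it in 17 and Scnn1a in 14. limma 3.58.1 in R 4.3.3 was fitted with level and treatment as terms, 11 residual degrees of freedom, and a mean-variance trend, two-sided. A gene is its brightest probe set with a single symbol; symbols were updated through Entrez identifiers to RefSeq GRCr8, which also gave the promoter sequences; no array probe was placed on it. On simulated data the fit was tested for recovery of known changes. The precision is limited by the number of pools.

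The members, the 31 gene lists and the naming rule were chosen with earlier results of these data known. The rule names Sst, Pvalb, Calca, the 12 genes highest and the 12 lowest in L6 by log2 difference, if past the threshold and with pools that do not overlap, up to 4 members past the threshold of each list, measured Hox genes, and Acta1 and Ckm as checks; 1 further check gene is not reported here. Opposite-side pools were normalised on their own, with a filter of 2 pools. Alternatives changed scaling, pseudocount, filter, model terms, pools and probe set summary.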

Additional observations from a re-analysis of the deposited data

Results flagged for a closer look

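Single pools lay far from the others of their level in 14 of 162 groups of values examined; chance flags about 1 in 20. The naive ipsilateral pools were high in muscle transcript. In L6 that pool had a muscle mean log2 value of 6.64 against 4.36 to 4.57 in the others, Acta1 at 1842 and Ckm at 1428. In L5 it had Acta1 at 1369 against 88.9 to 452 and Ckm at 834 against 56.9 to 205. That L5 pool also read 1.02 for Hoxa5 against 23.5 to 29.9. The sham contralateral L4 pool had a GAPDH 3′ to 5′ ratio of 3.16 against 1.23 to 1.34, Onecut1 at 29.9 against 19.4 to 22.9 and Cox6c at 134 against 91.2 to 101. The ipsilateral gabapentin L6 pool was the lowest for Hoxd10, 31.5 against 38.6 to 41.4, and for Chrna3, 139 against 174 to 178. The sham contralateral L6 pool was the highest for Scn3b, 307 against 185 to 212. The sham ipsilateral L6 pool was the lowest for Hpse, 14.2 against 26.1 to 30.7, and the sham ipsilateral L5 pool the highest for Hoxd4, 9.79 against 2.27 to 3.66, all weak signals.

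In 5 of the named genes every uninjured pair of the same treatment and side went one way and both opposite-side pairs of ligated rats the other. Only named genes were examined, and many were named because their uninjured L4 and L6 pools did not overlap. The share over all genes was not computed, so the 5 are a description. The mean opposite-side log2 difference was -0.43 for Scnn1a, against 0.66 to 1.85 over 5 uninjured pairs. It was -0.66 for Cdon, against 0.93 to 1.22, and -0.74 for Fgfr1-ps1, against 0.30 to 1.17. It was 0.15 for Kcnc2, against -1.03 to -0.23, and 0.19 for Rab3c, against -1.92 to -0.22. A test of the difference, added after seeing the data, gave limma adjusted p of 0.791 for Scnn1a, Fgfr1-ps1, Kcnc2 and Rab3c and 0.534 for Cdon.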

How the results depend on the processing

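Of 71 genes past the threshold between L6 and L4, 22 passed in every fit that left out 1 of the 16 pools, 8 higher and 14 lower. The count of probe sets, 105, became 4 with the deposited scaling, 183 with median scaling, 57 with a pair block of treatment and side, 21 with sides averaged, 0 and 2 in the ipsilateral and contralateral pools alone, 27 in the L4 and L6 pools alone and 2 without the gabapentin pools. The single-side, averaged and reduced sets have fewer samples; for the other changes the cause was not tested. The count of genes became 3, 38, 10, 0, 1, 17 and 2 with the deposited scaling, the pair block, averaged sides, ipsilateral pools, contralateral pools, L4 and L6 pools and no gabapentin pools. Leaving out 1 pool gave 38 to 352 probe sets and 27 to 191 genes.

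Between L6 and L5, 21 probe sets became 0 with the deposited scaling, 6 with the pair block, 7 with sides averaged, 1 and 0 on the ipsilateral and contralateral side, 2 without gabapentin pools, 11 without the variance trend, 33 without the 3 pools that stood apart, and 3 to 100 without 1 pool. Between L5 and L4, leaving out 1 pool gave 0 to 1. On the opposite side, leaving out 1 pool gave 0 to 1 probe sets, and 66.2% to 88.2% of genes with the same direction. The share of genes with L5 between, 84.5%, was 100% with the deposited scaling (3 genes) and on the contralateral side (1 gene), 92.3% with median scaling, 70% with sides averaged (10 genes) and 50% without gabapentin pools (2 genes).

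Among named genes, Gap43 (-0.012) was past the threshold and changed sign, with median scaling. The others that changed sign had not passed: Calca (-0.26, median scaling); Acta1 (-0.33, contralateral; -0.53, muscle covariate; -0.46, without the 3 pools) and Ckm (-0.20 and -0.15 in the latter cases); Hoxc9 (-0.11, contralateral; -0.095, mean of probe sets); Hoxa11 (0.24, deposited scaling; 0.087, ipsilateral; 0.051, without the 3 pools; 0.012, GAPDH covariate), Hoxb2 (0.25, deposited scaling; 0.062, without the 3 pools), Hoxc4 (0.11) and Hoxa5 (0.17) with the deposited scaling; and Hoxc5 (-0.0077, level alone; -0.0050, random block; -0.0011, ipsilateral). Leaving out 1 pool gave -0.37 to 0.62 for Acta1, -0.016 to 1.07 for Ckm, -0.15 to 0.077 for Hoxa11, -0.17 to 0.011 for Hoxb2 and -0.078 to 0.14 for Hoxc5. The variants without the 3 pools and with the GAPDH ratio were chosen after seeing the data.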

Other observations

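Genes of carbon metabolism and mitochondria that no comparison above described were among the falls; they were picked after their values were seen, so they are no test of a pathway. Ldhb, a lactate dehydrogenase subunit, went from a mean signal of 1266 in L4 to 788 in L6, a log2 difference of -0.69 (limma adjusted p = 0.00909). Mdh1, cytosolic malate dehydrogenase, went from 1656 to 1155, a difference of -0.51 (adjusted p = 0.0236). Mpc1, of the mitochondrial pyruvate carrier, went from 1566 to 1223, a difference of -0.35 (adjusted p = 0.0395). Slc25a5, an ADP/ATP carrier, differed by -0.40 (adjusted p = 0.0395) and Ppif, cyclophilin D, by -0.61 (adjusted p = 0.0100). Ldhb and Ppif held in each of 16 fits that left out 1 pool, Mdh1 in 12, Mpc1 in 5 and Slc25a5 in 3. Of 27 tested members of the respiratory chain list, 1 fell, Cox6c, and none rose; 25 were below 0 with a median of -0.11, and 17 with the deposited scaling, where the median was -0.05 against 0.18 for all genes. On the opposite side of ligated rats the list's median was 0.07.

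The kinases Pak1 and Pak2, which act downstream of small GTPases, were both lower in L6, by -0.76 (adjusted p = 0.00507) and -0.40 (adjusted p = 0.0368). Car2, carbonic anhydrase, an enzyme found in large DRG neurons, differed by -0.61 (adjusted p = 0.0360) and Gas6, a ligand of TAM receptors, by -0.61 (adjusted p = 0.0227). Fxyd2, a regulator of the sodium pump found in small DRG neurons, was higher, at 335 in L6 against 245 in L4, a difference of 0.44 (adjusted p = 0.0189). On the opposite side these 5 genes had log2 differences of -0.50, -0.10, -0.18, -0.44 and 0.24. Pak1 held in each of 16 fits that left out 1 pool, Gas6 and Fxyd2 in 12, and Pak2 and Car2 in 6.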
